A study of Mus musculus with 84 samples.

Results

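MMC9s are IL-9-producing mucosal mast cells of the intestine. Bulk RNA-seq of small-intestinal MMC9s carrying IL4RaY709F, an interleukin-4 receptor alpha chain with gain of function, was compared with that of WT MMC9s across all genes with 50 or more reads in the larger of the libraries. Of 55471 genes in the count table, 36637 had no read in either library, 12870 had between 1 and 49 reads in the larger library, and 5964 met the minimum. Those 5964 genes held 95.6% of the WT reads and 96.0% of the IL4RaY709F reads. The samples are labelled BALB/c and come from an adoptive transfer model of food allergy. Recipients were WT mice sensitised with ovalbumin, reconstituted with bone marrow progenitors that were either WT, IL4RaY709F or IL4Ra-/-, and then given 7 oral ovalbumin challenges at 3 per week. Each genotype is 1 library, made from RNA pooled over 12 to 20 biological replicates, so no difference below has a replicate check and no test between genotypes was possible. Intervals cover counting error only. Recipients kept their own WT cells, and the sources used here do not say how donor and host MMC9s were separated. The labels name the strain of the samples only and give no age. All groups used here were sensitised and challenged, so an unchallenged level was not analysed here.

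Interleukin-4 and interleukin-13 bind receptors that contain the alpha chain encoded by Il4ra. Ligand binding activates the Janus kinases JAK1 and JAK3 or their relatives, which phosphorylate STAT6, a transcription factor that then moves to the nucleus. The tyrosine replaced in IL4RaY709F lies in an inhibitory motif of the receptor tail, and SOCS proteins form a further brake on the kinases. In lymphocytes and mast cells the factors BATF and IRF4 act together at shared sites of cytokine genes, Il9 among them. A read count cannot show the substitution itself, so the level of Il4ra does not check the genotype label of the IL4RaY709F library.

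The defining mast cell genes were abundant in both libraries. Kit, the stem cell factor receptor, had 6769 reads in WT and 6307 in IL4RaY709F, or 2962 and 2712 CPM (reads scaled to a common library total by the trimmed mean of M-values), a log2 ratio of -0.13 (95% interval -0.18 to -0.08). Cpa3, mast cell carboxypeptidase, had 34193 and 45794 reads, or 14961 and 19690 CPM, with a log2 ratio of 0.40 (0.38 to 0.42). All log2 ratios are of IL4RaY709F over WT. Among the other identity markers the log2 ratio was 0.34 for Fcer1a and 0.36 for Ms4a2, chains of the IgE receptor, 0.49 for Il1rl1, the IL-33 receptor, 0.42 for Hdc, which makes histamine, and -0.11 for Gata2. All 17 listed mast cell markers had 50 or more reads, and together they took 8.10% of the WT reads and 10.6% of the IL4RaY709F reads. Markers of other cells took smaller summed shares, though the antibody gene Igha alone had 8453 reads, or 3699 CPM, in WT. B cell and plasma cell genes held 0.680% of the WT reads and 0.285% of the IL4RaY709F reads, and T cell genes 0.0170% and 0.0193%. The T cell share was mostly Cd3e, which had 349 and 456 reads and was detected in 30 of 80 WT single cells. Cd3d, by contrast, had 2 and 2 reads. Macrophage genes held 0.0916% and 0.0768%, mostly from Cx3cr1, which had 1389 and 1504 reads and was detected in 68 of 80 WT single cells. The other 19 macrophage genes summed to 717 and 434 reads. The libraries held 2299793 (WT) and 2521791 (IL4RaY709F) reads in genes, at which 3 reads correspond to 1.31 and 1.29 CPM.

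A gene counted as higher or lower if the larger library held 50 or more reads, the levels differed at least 2-fold and the 95% counting interval of the ratio excluded 1. By this size rule 100 of the 5964 genes, 1.68%, rose in IL4RaY709F and 46 genes, 0.771%, fell. These rates serve below as the background for each group of genes. Genes under 50 reads in 1 library entered only through the other, so list counts and medians can be partly set by this filter. Il9, Il10, Gzma, Serpinb6b, Mt2, Cd81 and Il17rb, for example, entered only through IL4RaY709F. The median log2 ratio of all 5964 genes was 0.02. Most differences were modest: 52 of the 100 higher genes and 29 of the 46 lower genes were under 2.5-fold, while 15 and 10 reached 4-fold. Scaling to total reads instead moved every log2 ratio by -0.11, which gave 71 genes higher and 69 lower. The 29 higher genes lost in that way are those with log2 ratios of 1.10 or less. Just outside the rule on the higher side were Cd55 and Crem, with log2 ratios of 0.997 and 0.990. On the lower side Runx2 at -0.995 and Apobr at -0.990 missed it, while Ddit4 and Necap1 at -1.0 passed.

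Counting error alone does not describe the spread between the libraries. Among the 2003 genes with 200 to 1000 reads the robust SD of the log2 ratio was 0.28, against a median counting error of 0.12, and among the 1826 genes with 50 to 100 reads the values were 0.37 and 0.26. Of the calls, 43 higher genes and 8 lower genes had 200 or more reads.

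**Figure D1:**
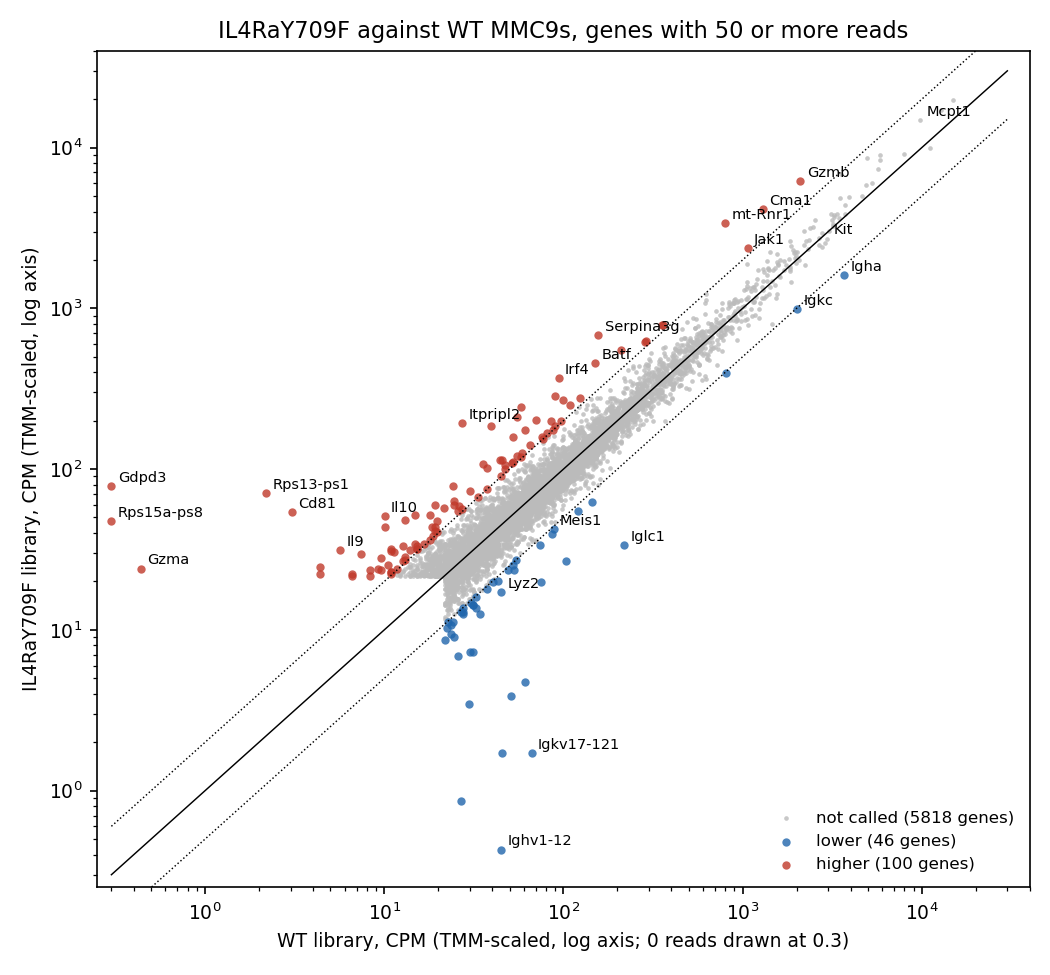
Level of each of the 5964 genes in the WT library (horizontal axis) and the IL4RaY709F library (vertical axis), in CPM on log axes, 1 point per gene, with genes at 0 reads drawn at the left edge. The solid line marks equal levels and the dotted lines 2-fold; red points are the 100 higher genes and blue points the 46 lower genes, with Gdpd3, Rps15a-ps8 and Gzma far to the left of the rest.

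The promoters of some of the genes that rose hold sequences of the kind that STAT and AP-1 family proteins recognise. Windows with a match are shown for Il9, Gzmb, Serpina3f, Serpina3g and Socs3, which recur in the results below. The windows of Il4ra, Jak1, Batf, Irf4, Socs1, Pim2, Cma1 and Il13, which recur as well, hold no match to any of the motifs given here. Each window runs from 250 bases before to 50 bases after the gene's start in RefSeq (build GRCm38.p6), 5′ to 3′ on the gene's strand. Capitals mark matches to the STAT6-type motif (TTC, any 4 bases, GAA), TTCNNNGAA, the spacing of other STAT sites, or TGANTCA, the AP-1 motif. The windows are chr13:56482208-56482507 on the minus strand for Il9, chr14:56262285-56262584 on the minus strand for Gzmb, chr12:104214294-104214593 on the plus strand for Serpina3f, chr12:104235897-104236196 on the plus strand for Serpina3g and chr11:117969317-117969616 on the minus strand for Socs3.
Il9: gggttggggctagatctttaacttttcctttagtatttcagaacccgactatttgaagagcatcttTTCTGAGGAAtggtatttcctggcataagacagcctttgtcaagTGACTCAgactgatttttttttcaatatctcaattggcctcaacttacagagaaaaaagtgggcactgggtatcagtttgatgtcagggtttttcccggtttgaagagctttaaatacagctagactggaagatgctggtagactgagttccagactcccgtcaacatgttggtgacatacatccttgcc
Gzmb: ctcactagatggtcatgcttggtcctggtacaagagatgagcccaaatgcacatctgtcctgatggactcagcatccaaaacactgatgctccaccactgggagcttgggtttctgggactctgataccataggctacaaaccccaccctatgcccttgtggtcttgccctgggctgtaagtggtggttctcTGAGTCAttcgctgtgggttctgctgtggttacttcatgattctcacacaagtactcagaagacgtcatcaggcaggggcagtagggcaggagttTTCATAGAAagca
Serpina3f: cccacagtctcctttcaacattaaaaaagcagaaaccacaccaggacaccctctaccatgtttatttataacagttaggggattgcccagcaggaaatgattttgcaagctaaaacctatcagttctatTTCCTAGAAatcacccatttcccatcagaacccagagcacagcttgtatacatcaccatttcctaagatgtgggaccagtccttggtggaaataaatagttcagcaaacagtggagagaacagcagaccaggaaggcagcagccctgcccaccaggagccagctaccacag
Serpina3g: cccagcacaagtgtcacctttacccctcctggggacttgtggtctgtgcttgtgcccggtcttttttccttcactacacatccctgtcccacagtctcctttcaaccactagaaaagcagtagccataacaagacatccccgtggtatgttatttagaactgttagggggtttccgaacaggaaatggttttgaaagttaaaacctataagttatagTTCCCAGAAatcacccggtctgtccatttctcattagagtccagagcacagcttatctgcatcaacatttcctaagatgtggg
Socs3: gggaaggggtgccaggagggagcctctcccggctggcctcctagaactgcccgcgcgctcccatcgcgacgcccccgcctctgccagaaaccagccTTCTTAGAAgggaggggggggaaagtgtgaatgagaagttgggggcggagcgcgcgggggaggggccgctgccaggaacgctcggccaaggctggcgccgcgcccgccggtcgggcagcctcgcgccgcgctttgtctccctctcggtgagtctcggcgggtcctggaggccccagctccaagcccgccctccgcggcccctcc

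Positions are counted from the RefSeq start, which is not the start used in the count table for every gene. The last 20 bases of the window were found in a GENCODE transcript of the gene for Il9 and Serpina3f and not for Gzmb, Serpina3g and Socs3. The Gzmb and Serpina3g windows lie outside the span of those genes in the count table, and the Socs3 window lies inside it. In the Il9 window the match TTCTGAGGAA starts 184 bases and TGACTCA 140 bases upstream of the start. In the Gzmb window TGAGTCA starts 58 bases upstream, and TTCATAGAA lies 37 bases after the start. The Serpina3f and Serpina3g windows hold TTCCTAGAA and TTCCCAGAA, 121 and 33 bases upstream, and the Socs3 window holds TTCTTAGAA 154 bases upstream. A RefSeq window was found for 74 of the 100 higher genes, 26 of the 46 lower genes and 4739 of the 5964 genes compared, and the first window listed was used where a gene had several. All 3 motifs read the same on both strands. The STAT6-type motif was present in 6 of the 74 higher windows (8.11%), 3 of the 26 lower windows (11.5%), 5.21% of the windows of all compared genes and 6.99% of the 27025 promoters in the table. TTCNNNGAA was present in 8.11%, 3.85%, 6.65% and 8.47%, and TGANTCA in 9.46%, 3.85%, 4.77% and 7.93%. The counts behind these shares are small, at most 7 windows of higher genes and 3 of lower genes per motif. A match describes the letters in the window and not binding.

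The receptor's own gene came first. Il4ra had 806 reads in WT and 1831 in IL4RaY709F, or 353 and 787 CPM, and was 2.23-fold higher in IL4RaY709F (95% interval 2.05 to 2.43). Jak1, one of the kinases bound to the receptor, had 2433 and 5503 reads and was 2.22-fold higher (2.12 to 2.33). Jak1 overlaps Raver2 on the opposite strand, which had 5 and 40 reads. Of the 16 receptor, kinase and STAT genes measured, these 2 rose and none fell, with a list median of 0.14. Stat6 had 938 reads in WT and 846 in IL4RaY709F, or 410 and 364 CPM, a log2 ratio of -0.17 (-0.31 to -0.04). The log2 ratio was 0.73 for Stat5a, 0.38 for Stat3, 0.36 for Jak3, 0.29 for Jak2, 0.09 for Il2rg, the common gamma chain, and -0.25 for Ptpn6, a phosphatase that acts at inhibitory motifs. In bulk RNA, fewer cells of a type and less RNA per cell cannot be told apart, here or in what follows.

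The SOCS inhibitors, whose transcription follows cytokine signalling, gave 2 higher genes of 7 and none lower. Socs1 had 86 reads in WT and 235 in IL4RaY709F, 2.69-fold higher (2.09 to 3.48), and Socs3, whose promoter is shown above, had 281 and 648, 2.27-fold higher (1.97 to 2.62). The relative Cish had 1248 and 2004 reads, a log2 ratio of 0.66 (0.56 to 0.76), and Socs2, Socs4, Socs5 and Socs7 lay between -0.20 and 0.34. Genes of growth and survival kinases were led by Pim2, a serine kinase induced by STAT factors, with 126 and 488 reads or 55.1 and 210 CPM, 3.81-fold higher (3.12 to 4.67). Pim2 was the 1 higher gene of 15 in its list, where Pim1 had a log2 ratio of 0.27, Pim3 0.08, Bcl2l1 0.57 and Mcl1 0.05.

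Among transcription factors of the BATF, IRF and AP-1 families, Batf and Irf4 rose and the other 17 measured members did not pass the rule in either direction. Batf had 344 reads in WT and 1061 in IL4RaY709F, or 151 and 456 CPM, 3.03-fold higher (2.68 to 3.43). Irf4 had 215 and 859 reads, or 94.1 and 369 CPM, 3.93-fold higher (3.38 to 4.58). The list median was 0.00, and the AP-1 partners of BATF were close to it, with log2 ratios of 0.20 for Junb, 0.09 for Jund and 0.00 for Jun. Nfil3, a bZIP repressor, had 194 and 462 reads, 2.34-fold higher (1.97 to 2.78), as the 1 higher gene of 8 in the list of NFIL3 and clock factors. Within that list Nr1d2 had a log2 ratio of -0.99 and Per1 -0.78, and the list median was -0.38, or 0.15 over the 3 members with 200 or more reads. Bcl3, a nuclear IκB protein, was 2.05-fold higher (1.66 to 2.55), the 1 called gene among 22 of the NF-κB list, which had a median of -0.14. The zinc finger factors Klf5 and Zfp703 had log2 ratios of 1.39 and 1.03.

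Of 27 listed cytokines 12 were measurable, and 5 of these, against the background of 1.68%, were higher, with none lower and a median log2 ratio of 0.78. Il9 had 13 reads in WT and 73 in IL4RaY709F, or 5.69 and 31.4 CPM, 5.52-fold higher (3.03 to 10.9). Il10, an anti-inflammatory cytokine, had 23 and 118 reads, or 10.1 and 50.7 CPM, 5.04-fold higher (3.21 to 8.26). Both were scarce in WT, so their intervals are wide. They met the read minimum only through IL4RaY709F, so the cytokine count and median above are partly set by the filter. Il13 had 661 and 1464 reads, or 289 and 629 CPM, 2.18-fold higher (1.98 to 2.39), and Il6 had 820 and 1834 reads, or 359 and 789 CPM, 2.20-fold higher (2.02 to 2.39). Tnfsf14, also called LIGHT, had a log2 ratio of 1.07. Il4 had 333 and 541 reads, or 146 and 233 CPM, a log2 ratio of 0.67 (0.48 to 0.88) that did not reach the rule. The IL-6 relatives Lif and Osm had log2 ratios of 0.77 and 0.80, and Tnf had 0.02. Fgf2, a growth factor outside the list, had 34 and 80 reads and a log2 ratio of 1.21. Per transcript length, Il13 stood at 240 RPKM (scaled reads per length) in WT and 522 in IL4RaY709F, and Il9 at 10.6 and 58.6. In both libraries the Il9 level was thus below that of Il13.

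Chemokine genes gave 1 higher gene of 5, Ccl7, which attracts monocytes and eosinophils, with 120 reads in WT and 367 in IL4RaY709F, 3.01-fold higher (2.44 to 3.72). Ccl1, Ccl2, Ccl3 and Ccl4 lay between -0.16 and 0.14. Of 18 cytokine receptor genes Il4ra, Il2ra and Il6st rose and none fell. Il2ra, the alpha chain of the IL-2 receptor, had 81 and 249 reads, 3.02-fold higher (2.34 to 3.93). Il6st, the signalling chain shared by IL-6 family receptors, had 41 and 121 reads, 2.90-fold higher (2.02 to 4.24). Il9r, the receptor for IL-9 itself, had a log2 ratio of -0.57. Il2ra and Il1rl1 are also on the list of ILC2 markers, a lymphoid type that makes similar cytokines. Of the 13 listed ILC2 genes, Bcl11b, Il5 and Ptgdr2 were at 0 reads in both libraries, and Gata3 had 4 and 5 reads. All 4 ILC2 genes with 50 or more reads had ratios above 0, with a median of 0.68, among them Il17rb with 41 and 74 reads (0.83) and Il7r with 110 and 161 (0.52). The summed level of the list, mostly Il1rl1, was 1.42-fold higher, and its part in the higher Il2ra was not tested.

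**Figure D2:**
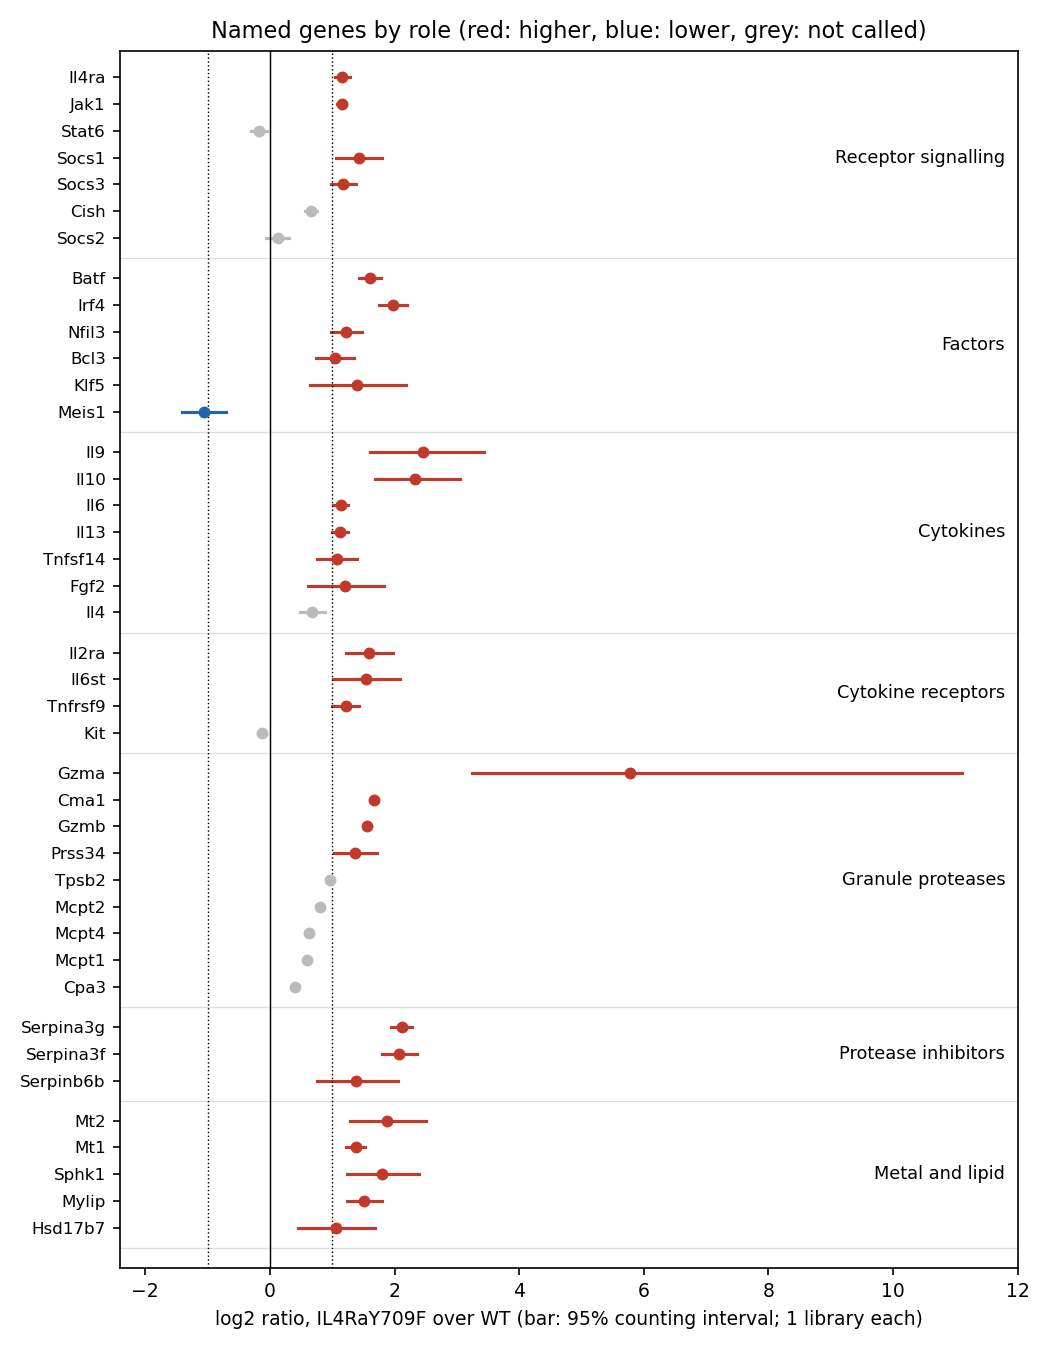
Log2 ratio of IL4RaY709F over WT (points) with 95% counting intervals (bars) for named genes grouped by role, 1 pooled library per genotype. Dotted lines mark 2-fold; red points passed the size rule as higher, the blue point (Meis1) as lower and grey points passed neither. Stat6, Kit and Cpa3 lie inside the dotted lines while Il9, Il10 and Irf4 lie well above the upper one.

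Granule protease genes were among the most abundant genes that rose. The listed chymase and granzyme genes took 2.39% of the WT reads and 3.95% of the IL4RaY709F reads, and their summed level was 1.78-fold higher. Gzmb, granzyme B, had 4798 reads in WT and 14415 in IL4RaY709F, or 2099 and 6198 CPM, 2.95-fold higher (2.86 to 3.05). Cma1, a chymase, had 2978 and 9658 reads, or 1303 and 4153 CPM, 3.19-fold higher (3.06 to 3.32). Both were among the deepest genes called and were read in 75 and 76 of 80 WT single cells. Mcpt1, the main mucosal chymase, had 22405 and 34364 reads, or 9803 and 14775 CPM, a log2 ratio of 0.59 (0.57 to 0.62). Mcpt2 and Mcpt4 had log2 ratios of 0.80 and 0.63, so 3 of the 7 genes with 50 or more reads rose and the more abundant chymases Mcpt1, Mcpt2 and Mcpt4 stayed under 2-fold. Per length, Cma1 was at 1195 RPKM in WT and 3810 in IL4RaY709F, and Mcpt1 at 9668 and 14571. The split of reads among the similar Mcpt genes is uncertain.

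The remaining member that rose, Gzma, had 1 read in WT and 56 in IL4RaY709F, a ratio of 55 with an interval from 9.48 to 2212. Gzma is also a marker of cytotoxic lymphocytes. Of that list's 13 genes, Gzmk, Eomes, Klrb1c and Klrd1 were at 0 reads in both libraries, Nkg7 had 11 reads in each, and Ncr1 had 18 and 19. The summed level of the list was 16.6 CPM in WT and 39.1 in IL4RaY709F, and without Gzma, a sum added after seeing the data, the list had 37 and 35 reads. Gzma had 10 or more reads in 6 of the 80 WT cells, with 56.5% of its single-cell signal in 1 cell.

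Among tryptases and carboxypeptidases, 1 of 6 rose: Prss34, a tryptase also known from basophils, had 101 reads in WT and 265 in IL4RaY709F, 2.58-fold higher (2.04 to 3.28). Tpsb2 and Tpsg1 had log2 ratios of 0.96 and 0.93. Of 7 basophil markers measured, Prss34 alone rose. Some protease inhibitor genes were higher too. Serpina3g had 358 and 1581 reads, or 157 and 680 CPM, 4.34-fold higher (3.87 to 4.88), and Serpina3f had 132 and 564 reads, or 57.8 and 242 CPM, 4.2-fold higher (3.47 to 5.11). These genes lie 15.1 kb apart on chromosome 12, resemble each other closely and have an uncertain split of reads. Serpinb6b had a log2 ratio of 1.38 and Serpinb9, an inhibitor of granzyme B, 0.58. The list gave 3 higher genes of 9, none lower and a median of 0.44.

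Amine and proteoglycan genes of the granule gave 1 call each. Ddc, which decarboxylates the precursors of serotonin and dopamine, had 49 reads in WT and 134 in IL4RaY709F, 2.69-fold higher (1.92 to 3.81), beside log2 ratios of 0.42 for Hdc and 0.51 for Tph1, which starts serotonin synthesis. Xylt1, which begins the sugar chains of serglycin, was higher and is described below with its chromosomal position, while Srgn, serglycin itself, had a log2 ratio of 0.37. Of 27 mast cell surface receptors, Adora3, an adenosine receptor, and Cd200r1, an inhibitory receptor, rose with log2 ratios of 1.12 and 1.28. Siglecf and P2rx7 had -0.41 and -0.38.

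Metallothioneins, small proteins that bind zinc and copper, were higher. Mt1 had 481 reads in WT and 1273 in IL4RaY709F, 2.60-fold higher (2.34 to 2.89). Mt2, which lies 5.51 kb away on chromosome 8, had 30 and 112 reads, or 13.1 and 48.2 CPM, 3.67-fold higher (2.43 to 5.69). No zinc transporter passed the rule, but 12 of the 13 measured members of the list had log2 ratios above 0, with a median of 0.25. Steap3, an endosomal metalloreductase, had 10 and 52 reads and a log2 ratio of 2.35. Sphk1, which makes sphingosine 1-phosphate, a signal released by mast cells, had 34 and 120 reads, or 14.9 and 51.6 CPM, 3.47-fold higher (2.35 to 5.24).

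Lipid and fuel genes moved singly. Mylip, a ubiquitin ligase induced by sterols, had 140 reads in WT and 408 in IL4RaY709F, 2.86-fold higher (2.36 to 3.50), and Hsd17b7, a cholesterol synthesis enzyme, had a log2 ratio of 1.05. They were the only calls among 26 genes of cholesterol synthesis and uptake, whose median was 0.01, with Hmgcs1 at -0.75. Slc16a1, a lactate transporter, had a log2 ratio of 1.01 and was the 1 call among 26 glycolysis and pentose phosphate genes, with Slc2a1 at 0.81 and Gapdh at -0.59. Glycerol kinase, Gk, had 1.19, and the aldo-keto reductase Akr1c13 had 1.54. Ldlrad4, an inhibitor of TGF-β signalling, had 1.06 and was the 1 call among 16 genes of that pathway. Igtp, an interferon-induced GTPase, had 1.05 and was the 1 call among 24 interferon response genes.

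The other higher genes were spread over many roles, and 60 of the 100 higher genes were on none of the lists. Kcnk5, a potassium channel, had 23 reads in WT and 101 in IL4RaY709F, or 10.1 and 43.4 CPM, 4.32-fold higher (2.72 to 7.11). Phlda1, a pleckstrin homology protein, had 205 and 659 reads, 3.16-fold higher (2.70 to 3.71). Among genes of immune signalling the log2 ratio was 1.51 for Mir155hg, the host transcript of miR-155, 1.37 for Cd52, 1.29 for Slfn2, 1.27 for Map3k8, a kinase upstream of ERK, and 1.22 for Tnfrsf9, the co-stimulatory receptor 4-1BB. It was 1.15 for Nlrp3, the inflammasome sensor, 1.05 for Nek7, its partner kinase, 1.13 for Entpd1, the ectonucleotidase CD39, 1.10 for Rftn1, a lipid raft protein, and 1.05 for the phosphatase Ptpn18. Ubiquitin ligases and related enzymes included Nedd4l at 1.43, Rnf180 at 1.05 and the deubiquitinase Usp22 at 1.06.

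Genes of adhesion, the cytoskeleton and trafficking included Fermt2, kindlin-2, with a log2 ratio of 1.09, Dock5, a Rac activator, with 1.28, Frmd6 with 1.09, Gas2l3 with 1.11, Evi5 with 1.42, Snx25 with 1.10, Ap1s3, a clathrin adaptor subunit, with 1.06 and Trappc2l with 1.16. Receptors, transporters and secreted proteins included Stc2, stanniocalcin 2, with 2.0, Slc22a13b with 1.70, Gpr176, an orphan receptor, with 1.32, Gng12, a G protein subunit, with 1.01 and the membrane proteins Pqlc1 with 1.5, Tmem104 with 1.01, Manbal with 1.03 and Emc4 with 1.07. Ribosome and nucleolus genes included Nol10 with 1.37, Grwd1 with 1.06, Nol12 with 1.05, Mrpl54 with 1.02 and Rpl26 with 1.09. Enzymes included Fkbp1a, the target of FK506, with 1.30, Xpnpep1 with 1.17, Hemk1 with 1.04 and Cyb5a with 1.02. Further loci known mainly by number or as noncoding RNAs were 9130008F23Rik with 2.49, Gm19585 with 1.71, Gm15564 with 1.63, Gm10167 with 1.54, Gm47599 with 1.18, 4932438H23Rik with 1.05, Zfas1 with 1.03 and Gm42528 with 1.01. In all, 34 of the 100 higher genes had under 100 reads in the larger library.

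Several of the largest differences sat on chromosome 7, the chromosome of Il4ra. Within 10 Mb of Il4ra 5 of 83 genes (6.02%) rose and none fell. On the rest of chromosome 7, 4 of 336 (1.19%) rose and 3 fell, and on the other chromosomes 91 of 5545 (1.64%) rose and 43 (0.775%) fell. The share was 4.76% of 63 genes within 5 Mb and 5.0% of 140 genes within 20 Mb. The 5 include Il4ra itself. The sources used here do not say how the mutant line was bred.

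Gdpd3, which encodes a lysophospholipase D and lies 1.19 Mb from Il4ra, had 0 reads in WT, 182 in IL4RaY709F and 1 in IL4Ra-/-. Against a floor of 3 reads in the WT library it was at least 59.6-fold higher, at 78.3 CPM in IL4RaY709F. Its neighbour Mapk3 had a log2 ratio of 0.27, and the antisense gene Gm9967 that overlaps it had 15 reads in WT and 0 in IL4RaY709F. Itpripl2, at -7.06 Mb, had 62 reads in WT and 448 in IL4RaY709F, or 27.1 and 193 CPM, 7.10-fold higher (5.43 to 9.42), and had 75 reads in IL4Ra-/-. Xylt1, at -7.88 Mb, had 161 and 473 reads, or 70.4 and 203 CPM, 2.89-fold higher (2.41 to 3.47). AI467606, at 1.51 Mb, had 30 and 66 reads, or 13.1 and 28.4 CPM, 2.16-fold higher (1.38 to 3.45). Apobr and Ino80e, in the same 10 Mb window, had log2 ratios of -0.99 and -0.96.

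Farther along the chromosome, near its end, H19 and Cd81 lie in an imprinted region. H19, a noncoding RNA expressed from the maternal copy, had 90 reads in WT and 430 in IL4RaY709F, or 39.4 and 185 CPM, 4.69-fold higher (3.73 to 5.96), and 318 reads in IL4Ra-/-. Cd81, a tetraspanin, had 7 and 126 reads, or 3.06 and 54.2 CPM, 17.7-fold higher (8.34 to 44.9), and 29 reads in IL4Ra-/-. Of 80 WT cells, 1 had 10 or more Cd81 reads and 11 had as many H19 reads. Both genes were thus higher than WT in both mutant libraries, whereas Itpripl2 and Gdpd3 were high in IL4RaY709F alone of the 3 libraries. Of 7 measured genes on the imprinted list H19, Cd81 and Ddc rose, and the others, Impact, Nap1l4, H13 and Ube3a, lay between -0.59 and 0.26.

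**Figure D3:**
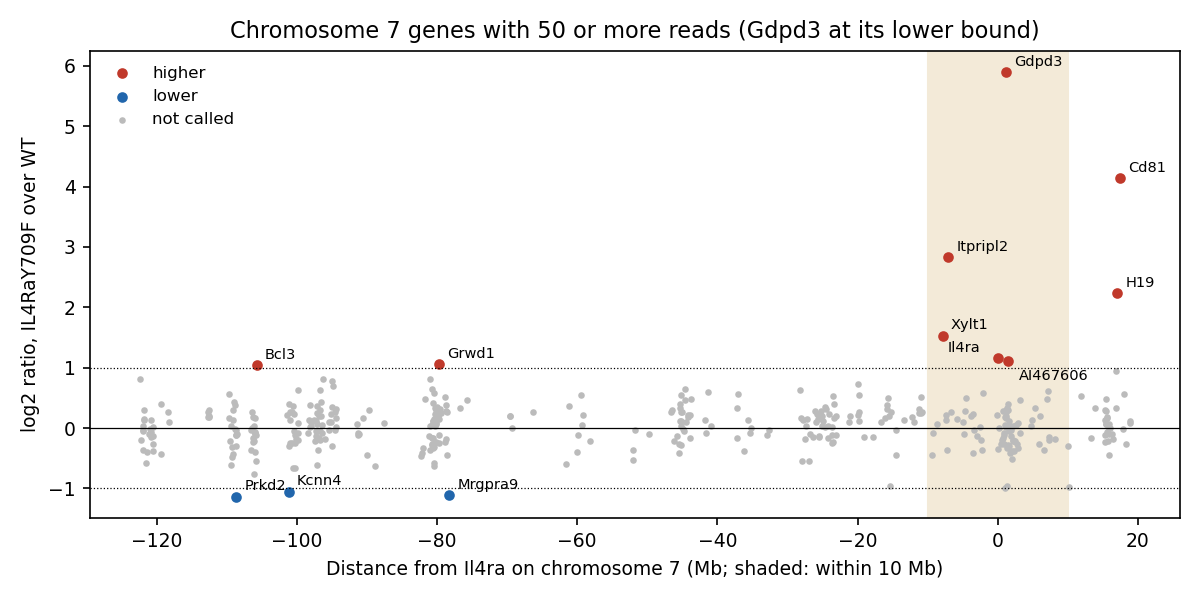
Log2 ratio of IL4RaY709F over WT for genes on chromosome 7 with 50 or more reads (1 point per gene) against distance from Il4ra in Mb, with the 10 Mb window shaded. Red points are higher and blue points lower genes, dotted lines mark 2-fold and Gdpd3 is drawn at its lower bound; 5 of 83 genes in the shaded window are red.

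Ribosomal pseudogenes also gave large ratios. Rps15a-ps8 had 0 reads in WT and in IL4Ra-/- and 110 in IL4RaY709F, at 47.3 CPM at least 36-fold higher than the WT floor. Rps13-ps1 had 5 and 165 reads, or 2.19 and 70.9 CPM, 32.4-fold higher (13.6 to 101), and 5 reads in IL4Ra-/-. The intact genes Rps15a and Rps13 had log2 ratios of 0.14 and -0.08. The sources used here do not say how reads matching both a gene and its pseudogene were assigned, which makes these counts uncertain. Of 61 processed pseudogenes 3 rose and none fell. The mitochondrial 12S ribosomal RNA mt-Rnr1 had 1819 and 7851 reads, or 796 and 3376 CPM, 4.24-fold higher (4.03 to 4.47), while the 16S RNA mt-Rnr2 had a log2 ratio of 0.51 and the 7 mitochondrially encoded protein genes measured lay between -0.07 and 0.19.

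Fewer genes fell, and of the 46 lower genes 17 were immunoglobulin genes. Of the other 29, 10 had 100 or more reads in WT. Rab11fip4, an effector of recycling endosomes, had 328 reads in WT and 145 in IL4RaY709F, or 144 and 62.3 CPM, 2.3-fold lower (1.89 to 2.82). Prkd2, protein kinase D2, had 274 and 127 reads, or 120 and 54.6 CPM, 2.20-fold lower (1.77 to 2.73). Meis1, a homeobox factor of haematopoietic progenitors, had 202 and 99 reads, or 88.4 and 42.6 CPM, 2.08-fold lower (1.62 to 2.67). Meis1 was the 1 call among 27 mast cell identity factors, beside Runx2 at -0.99, Zfpm1 at -0.98, Mitf at -0.24 and Gata1 at 0.40. Lin54, a subunit of the DREAM cell cycle complex, had 196 and 92 reads, or 85.8 and 39.6 CPM, 2.17-fold lower (1.68 to 2.81).

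Alpk2, an alpha kinase, had 169 reads in WT and 78 in IL4RaY709F, or 73.9 and 33.5 CPM, 2.20-fold lower (1.68 to 2.92). It lies 47.7 kb from Nedd4l, which rose. Ddit4, an inhibitor of mTORC1 also called REDD1, had 124 and 63 reads, or 54.3 and 27.1 CPM, 2.0-fold lower (1.47 to 2.76). Osgin1, an oxidative stress response gene, had 121 and 55 reads, or 52.9 and 23.6 CPM, 2.24-fold lower (1.61 to 3.14). Syne1, nesprin 1, had 120 and 59 reads, or 52.5 and 25.4 CPM, 2.07-fold lower (1.5 to 2.88). The last of the deeper lower genes were a channel and a macrophage gene. Kcnn4, a calcium-activated potassium channel of mast cells, had 112 and 55 reads, or 49 and 23.6 CPM, 2.07-fold lower (1.49 to 2.92). Lyz2, lysozyme of macrophages and monocytes, had 103 and 40 reads, or 45.1 and 17.2 CPM, 2.62-fold lower (1.80 to 3.88). The other macrophage markers with 50 or more reads, 3 of 20 listed, had log2 ratios of -0.93 for Mpeg1, -0.54 for Apoe and 0.09 for Cx3cr1, and none of the 20 was at 0 in both libraries. The summed macrophage level was 921 CPM in WT and 833 in IL4RaY709F. Without Cx3cr1, a sum added after seeing the data, it was 314 CPM in WT, 187 in IL4RaY709F and 961 in IL4Ra-/-, with 16 of the 19 genes lower in IL4RaY709F than in WT. The part of this in the lower Lyz2 was not tested.

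The 19 shallower lower genes had under 100 reads in WT. Genes of centrosomes, centromeres and dyneins included Hjurp, the CENP-A chaperone, with a log2 ratio of -1.10, Cntrob with -1.10, Dync2h1 with -1.13 and Dnah8 with -1.11. Others were Agtpbp1 with -1.03, Ppp1r12b, a myosin phosphatase subunit, with -1.07, Necap1 with -1.0, Mrgpra9, a Mas-related receptor, with -1.11, and Klf16 with -1.04. Gm16897, which overlaps the far more abundant Cd34, had -1.91, Tstd2 -1.44, Plpp6 -1.32, Tmem87b -1.23, Plekhn1 -1.14, Fam102b -1.14, Col11a2 -1.13, Nxpe4 -1.05, Prrt1 -1.03 and Sfxn1, a mitochondrial serine transporter, -1.03. No cytokine, granule protease, chemokine or SOCS gene was among the lower genes. Only 12 cytokines, 7 chymases and granzymes, 6 tryptases and carboxypeptidases, 5 chemokines and 7 SOCS genes were measured. With 0.771% of all compared genes lower, lists of this size would mostly hold none.

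Immunoglobulin genes made up the largest differences in the lower direction. Of 22 with 50 or more reads 17 fell, 1 rose and 4 passed neither way, with a median of -1.93. Genes scarce in 1 library met the minimum only through the other, so this median is partly set by the filter. Without the minimum, the summed level of the family in IL4RaY709F was 0.458 of that in WT. Igha, the IgA heavy chain constant region, had 8453 reads in WT and 3748 in IL4RaY709F, 2.3-fold lower (2.21 to 2.39), and 17406 in IL4Ra-/-. Igkc was 2.04-fold lower (1.94 to 2.15) and Jchain, which joins IgA into dimers, 2.06-fold lower (1.90 to 2.23). Iglc1, a lambda chain constant region, had 497 and 78 reads, 6.48-fold lower (5.10 to 8.34). Summed over the family, immunoglobulin reads were 0.824% of the WT library, 0.350% of the IL4RaY709F library and 1.84% of the IL4Ra-/- library. Of the 18 B cell and plasma cell markers listed, 5 had 50 or more reads and 4 of them fell. These 5 are Igha, Igkc, Iglc1, Jchain and Ighm, already counted above in the immunoglobulin family. Members outside that family were shallow and mixed. Sdc1 had 18 reads in WT and 5 in IL4RaY709F, Pou2af1 20 and 14, Cd79a 11 and 10, and Cd79b 8 and 11. The summed level of the 18 markers, mostly from immunoglobulin genes, was 6840 CPM in WT, 3091 in IL4RaY709F and 13624 in IL4Ra-/-. The number of such cells among the sorted cells was not measured.

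Variable segments differed more from each other than constant regions did. Of 17 measured segments 13 fell and 1 rose, with log2 ratios from -6.71 to 1.77. Segments scarce in 1 library met the read minimum only through the other, so the filter sets part of this spread. Over all segments, measured or not, the reads were 3381 in WT and 1692 in IL4RaY709F. The extremes were Ighv1-12, with 103 reads in WT and 1 in IL4RaY709F, and Igkv14-111, with 15 and 52. The log2 ratio was -5.27 for Igkv17-121, -4.96 for Igkv8-19, -4.73 for Ighv9-3, -3.73 for Igkv3-5, -3.70 for Igkv17-127, -3.11 for Igkv4-57-1 and -2.09 for Ighv3-2. It was -2.05 for Igkv6-15, -1.95 for Iglv1, -1.92 for Igkv6-23, -1.45 for Ighv3-6 and -1.35 for Igkv1-117. Igkv10-96, Igkv1-110 and Igkv5-48 were at -0.61, -0.31 and 0.11. The most read segment was Iglv1 in WT with 6.95% of 3381 segment reads, and Igkv10-96 in IL4RaY709F with 7.15% of 1692. Of the 17 segments 2 had 10 or more reads in any of the 80 WT cells. The more abundant Igha, Igkc and Jchain had as many reads in 27, 20 and 17 of these cells. Igkc had 65.2% of its single-cell signal in 1 cell, and Jchain had 51.7% in 1 cell.

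Many lists held small differences or none. Of 77 cytosolic ribosomal protein genes 1 rose, Rpl26, but 73 had log2 ratios above 0 and the median was 0.26. Nuclear oxidative phosphorylation genes had 58 of 67 above 0 and a median of 0.20, with no call and log2 ratios of 0.01 for Atp5a1 and 0.14 for Atp5b. Genes of the unfolded protein response and the endoplasmic reticulum had 35 of 38 above 0, a median of 0.18 and no call, with Hspa5 at 0.17 and Ero1l at 0.52. The amino acid list had a median of 0.25 over 18 genes, with Slc7a8 at 0.47 and Glul at -0.36. For comparison, 3150 of all 5964 genes lay above 0. These medians remain above 0 under total-read scaling, which shifts them by -0.11.

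The IgE receptor signalling chain had 41 measured genes, none called, and a median of 0.01, with Fcer1a at 0.34 and Lcp2 at 0.02. Immediate early factors had 24 genes, none called, and a median of 0.03, with Fosb at -0.16 and Junb at 0.20. Neither set differed from the median of all genes by more than the scaling shift. The same held for eicosanoid synthesis with 11 genes and a median of 0.05 (Alox5 0.07, Pla2g7 0.21), cytoskeleton genes with 33 and 0.05 (Tmsb4x 0.30, Lmna 0.25), integrins with 12 and 0.10 (Itga2b 0.08, Itgb7 0.21), and MHC genes with 13 and 0.04 (H2-D1 0.12, H2-T23 0.27). Granule exocytosis genes had a median of 0.02 over 29, with Rab11fip4 the 1 call. Lysosomal genes had a median of 0.12 over 39 with no call, Laptm5 at 0.03 and Gm2a at 0.32. The medians of the IgE chain, immediate early, eicosanoid, cytoskeleton, integrin, MHC and exocytosis lists fall below 0 under total-read scaling. So do those of the BATF and AP-1, chemokine, PIM and BCL2, surface receptor, TGF-β, cholesterol and interferon lists above.

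Cell division lists were at or below 0. DNA replication had 13 measured genes, none called, and a median of -0.08, with Rfc2 at -0.17 and Pcna at 0.44. Mitosis had 9 genes, none called, and a median of -0.12, with Tubb5 at 0.09, Kif23 at 0.26 and Mki67 at -0.98. Over the 2 and 3 members with 200 or more reads the medians were 0.14 and 0.09. MAP kinase brakes had 10 genes and a median of -0.07, with Dusp1 at -0.17 and Dusp4, a nuclear MAP kinase phosphatase, at 0.97. Of 17 listed MHC class II and dendritic cell genes, all 5 measured were below 0, with none called, Cd74 at -0.24 and H2-Ea-ps at -0.37. Members under the minimum were mixed. H2-DMa had 32 reads in WT and 42 in IL4RaY709F, Itgax 29 and 34, Ciita 9 and 5, and H2-DMb1 4 and 4. The single measured markers of T cells, granulocytes, epithelium and endothelium were Cd3e at 0.36, Siglecf at -0.41, Anpep at -0.13 and Pecam1 at 0.77. In the same order they had 10 or more reads in 30, 2, 34 and 45 of 80 single WT MMC9s. Cd3e, Anpep and Pecam1 were thus read in many MMC9s, and the other members of those lists were under the minimum.

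**Figure D4:**
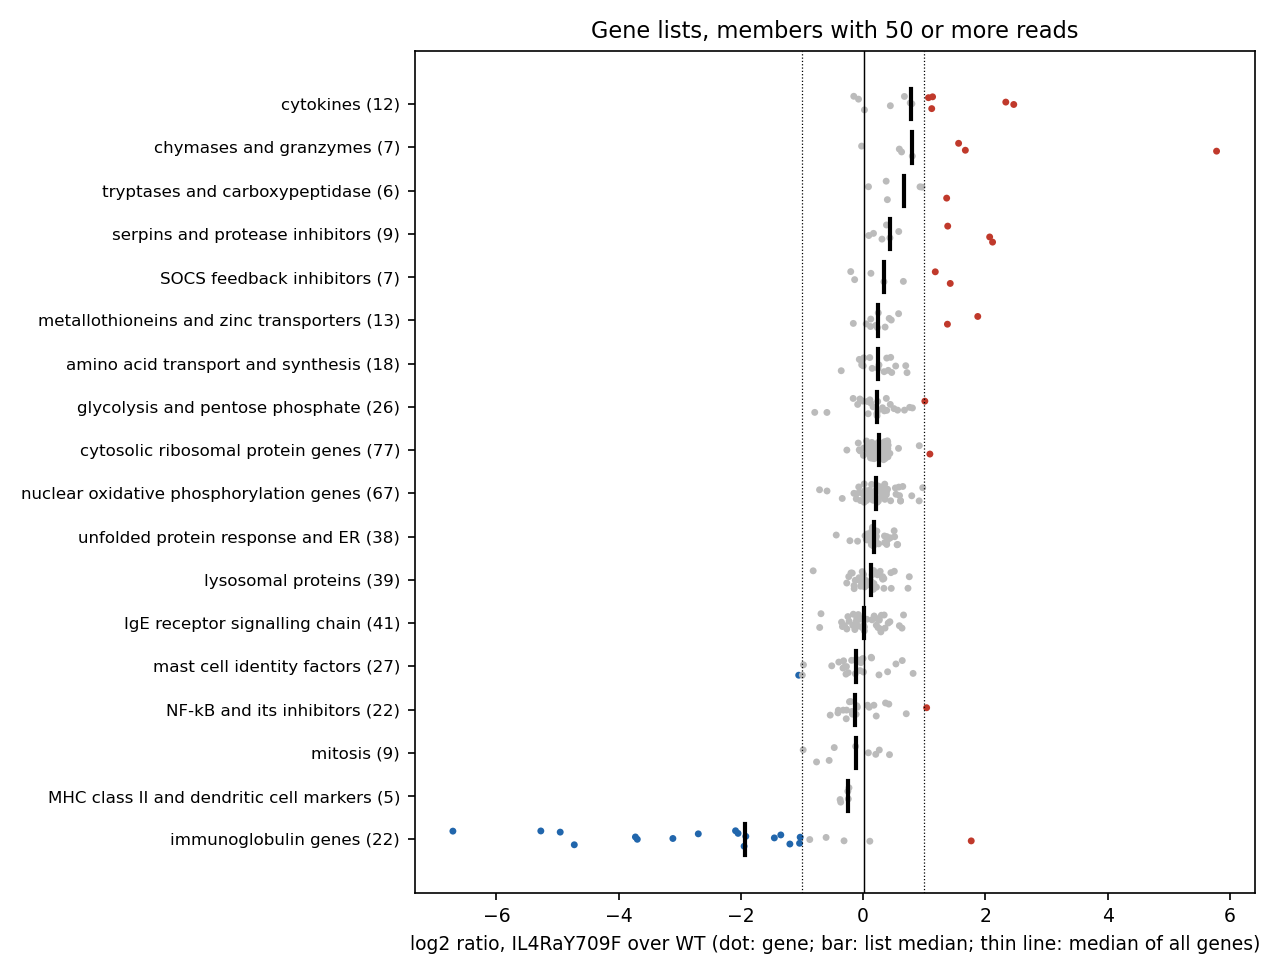
Log2 ratio of IL4RaY709F over WT for members of 18 gene lists with 50 or more reads (1 point per gene, the number of members in brackets), with the list median as a black bar. Red points are higher and blue points lower genes, and dotted lines mark 2-fold; ribosomal protein genes cluster just above 0, whereas immunoglobulin genes spread from -6.71 to 1.77.

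The ratio differed with transcript length across genes. In 5 groups of nearly equal size by length, from shortest to longest, the median log2 ratio was 0.17, 0.05, 0.01, -0.04 and -0.08. Higher genes numbered 46, 17, 21, 11 and 5 in the same groups, and lower genes 24, 2, 6, 7 and 7. Spearman's rho of the log2 ratio with length was -0.24 across the 5964 genes and -0.32 across 2459 genes with 200 or more reads, as a description over genes that share the libraries. With GC content it was -0.05. Higher genes had a median length of 2899.5 bases, lower genes 2674 and all genes 5041.5. Outside the immunoglobulin family the medians were 2908 for higher and 5911 for lower genes. Ribosomal protein and oxidative phosphorylation genes are short, and the part of length in their medians was not tested. Some higher genes of other lists are short too, with Il9 at 536 bases, Mt2 at 588, Cma1 at 1090 and Gzmb at 1436. Others are longer, with Il4ra at 6002 and Jak1 at 7227. The part of length in the counts of those lists was not tested either. Restricted to genes of 1000 to 6000 bases, the calls were 74 higher and 17 lower.

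The library labelled IL4Ra-/- was read against the same WT library, so its ratios share WT with those above and are given side by side only. Il4ra itself had 350 reads in that library, and stood at 138 CPM beside 353 in WT and 787 in IL4RaY709F, lower than in WT but not absent. A count over the whole gene does not show which part of it was read, so this value does not check the label. Batf stood at 51.5 CPM in IL4Ra-/-, 151 in WT and 456 in IL4RaY709F, and Irf4 at 65.7, 94.1 and 369. Socs1 stood at 9.44, 37.6 and 101 CPM, Socs3 at 33.4, 123 and 279, and Pim2 at 18.1, 55.1 and 210. For these genes WT lay between the mutants. The same order held for Serpina3g at 67.2, 157 and 680 CPM, for Serpina3f at 19.3, 57.8 and 242, and for Mt1 at 95.2, 210 and 547. Il9 had 1 read in IL4Ra-/-, beside 13 and 73.

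Other genes that rose in IL4RaY709F were close to WT in IL4Ra-/-. Gzmb stood at 1931 CPM in IL4Ra-/-, 2099 in WT and 6198 in IL4RaY709F. Tnfrsf9 stood at 111, 109 and 252 CPM, and Xylt1 at 62.5, 70.4 and 203. For some genes IL4Ra-/- was above WT as well. Il13 stood at 337 CPM in IL4Ra-/-, 289 in WT and 629 in IL4RaY709F, and Akr1c13 at 24, 10.9 and 31.8. Among lower genes, Meis1 had 212 reads in IL4Ra-/-, 202 in WT and 99 in IL4RaY709F, and Lin54 had 222, 196 and 92. Alpk2 had 79, 169 and 78 reads, low in both mutants.

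**Figure D5:**
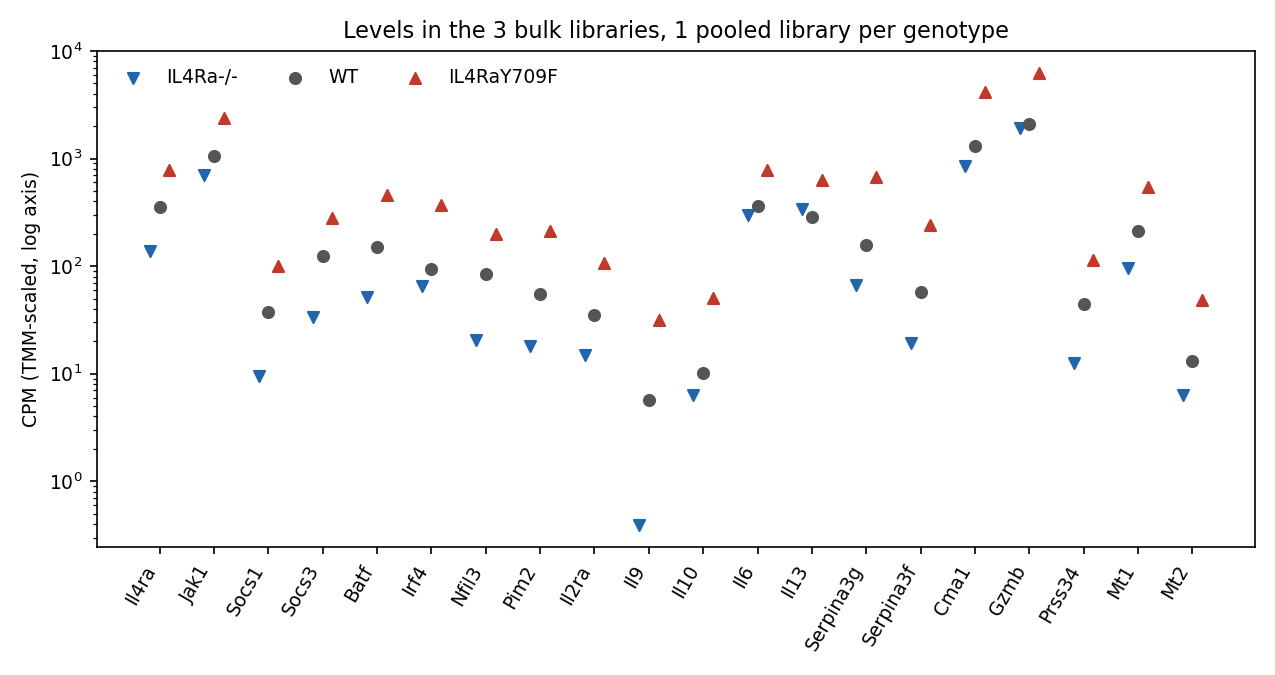
Level in CPM (log axis) of 20 named genes in the IL4Ra-/- (blue), WT (grey) and IL4RaY709F (red) libraries, 1 pooled library per genotype and no error bars. All 20 genes were picked from those called higher in IL4RaY709F than in WT, so red above grey follows from the choice. The red triangle lies above the blue one for every gene shown, which the choice of genes high in IL4RaY709F favours as well. Il9 in IL4Ra-/- rests on 1 read.

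Single WT MMC9s, sequenced separately from mice with the same kind of allergy, showed in how many WT cells these genes were read. A gene was counted as detected in a cell at 10 or more reads, in the 80 cells kept of 81. The median higher gene was detected in 14.5 cells, the median lower gene in 4 and the median of all 5964 genes in 21. The size rule picks higher genes by their lower level in WT, so their smaller number of WT cells follows in part from that choice. The 29 lower genes outside the immunoglobulin family had a median of 8 cells. Of the higher genes 13 were detected in at least 40 cells and 3 in none, namely Gdpd3, Rps15a-ps8 and Gm10167. For 0 of 80 cells the exact 95% upper limit is 4.51% of cells with 10 or more reads, which covers counting error only and does not limit the share of cells that express the gene. Il9 was detected in 1 cell, Socs1 in 3, Socs3 in 8, Irf4 in 10, Il13 in 12 and Batf in 51. Of the lower genes 13 were detected in no cell, of which 12 were immunoglobulin genes and the other was Lyz2. The cells carry no animal label and count as 1 sample.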

How the data were processed

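RNA of MMC9s was sequenced as 1 bulk library per genotype, and 81 WT MMC9s were sequenced singly. The authors deposited raw integer counts of reads for each gene, with gene lengths in bases beside them. Per the submitters' processing notes, HISAT and featureCounts of Subread 2.0.0 were used, and the builds GRCm38 and mm9 are named without roles. Of 55471 gene IDs, 55144 were in GENCODE M21 (GRCm38), 99.47% of them at the same coordinates. Strand setting and multi-mapping were not given in the sources used here, and overlapping genes and near-identical copies cannot be told apart.

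Counts were scaled by TMM (edgeR 4.0.16, factors 0.994 for WT, 0.922 for IL4RaY709F and 1.09 for IL4Ra-/-). Ratios carry exact conditional binomial (Clopper-Pearson) 95% intervals. A gene at 0 reads was set to 3 reads in ratios. Single cells were kept with at least 500 genes and 10000 reads. Full values are given for the 15 highest called genes with 100 or more reads, the lower genes of that depth outside the immunoglobulin family, fixed genes of the pathway, and called genes near Il4ra; other called genes have their log2 ratio, except 1 that is not reported here. The members and lists were chosen with earlier results of these data known. The script was tested on simulated data. Alternatives were scaling, read minimum, fold, interval, gene subset and window.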

Additional observations from a re-analysis of the deposited data

How the results depend on the processing

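The counts of 100 higher and 46 lower genes were also taken under other settings. TMM over the WT and IL4RaY709F libraries alone and DESeq2 size factors gave the same 100 and 46 genes, and a stricter counting interval gave 95 and 40. Total-read scaling gave 71 higher and 69 lower genes, and total reads without immunoglobulin and mitochondrial genes 71 and 71; in both, all 46 lower genes were kept. With a minimum of 20 reads the counts were 181 and 127, with 100 reads 66 and 21, with 200 reads 43 and 8, and with no minimum 252 and 258. A fold of 1.5 gave 367 and 212, and a fold of 3 gave 29 and 13. Leaving out immunoglobulin genes gave 99 and 29, and keeping genes detected in at least 2 WT cells gave 93 and 31. Added after seeing the data, leaving out the 10 Mb around Il4ra gave 95 and 46, and genes of 1000 to 6000 bases gave 74 and 17. Total-read scaling turned the sign of 14 list medians that lay between 0 and 0.1. Over members with 200 or more reads, 6 list medians changed sign, among them NFIL3 and clock factors (-0.38 to 0.15), DNA replication (-0.08 to 0.14) and mitosis (-0.12 to 0.09). The change in counts with the read minimum follows from more or fewer genes entering; other causes were not tested. No paired analysis was possible because each genotype is 1 library.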

Other observations

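Some genes under the read minimum sit beside genes described above. In the Serpina3 cluster, Serpina3h had 2 reads in WT, 31 in IL4RaY709F and 0 in IL4Ra-/-, and Serpina3i had 1, 18 and 2. Igf2, the imprinted partner of H19, had 14 reads in WT, 47 in IL4RaY709F and 16 in IL4Ra-/-, and was detected in none of 80 WT cells. Among macrophage markers, the complement gene C1qa had 31 reads in WT, 19 in IL4RaY709F and 157 in IL4Ra-/-. C1qb had 36, 17 and 89, C1qc had 36, 16 and 95, and Csf1r, the receptor for the growth factor CSF1, had 40, 16 and 173. Of genes that overlap called genes, Nat9 beside Tmem104 had 61, 113 and 48 reads, and Cfap97 beside Snx25 had 21, 43 and 38.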
